A study of Mus musculus with 18 samples.

Results

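Vascular and leptomeningeal fibroblasts were examined in single-nucleus RNA-seq of 2 brain regions, hippocampus (Hip) and prefrontal cortex (PFC), of mice with and without a gut microbiota. A nucleus was taken as a fibroblast when its summed UMIs (unique molecular identifiers, each counting 1 captured RNA molecule) of Slc6a13, Ranbp3l, Col1a1 and Col1a2 reached 3 and were at least 2 times its summed UMIs of 12 genes of neurons, oligodendrocytes, astrocytes, microglia, endothelium, pericytes and choroid plexus (Slc17a7, Gad1, Gad2, Mog, Mag, Aqp4, Csf1r, Flt1, Cldn5, Atp13a5, Folr1 and Kl). By this rule 1575 of 138000 nuclei with at least 200 genes and at most 10% mitochondrial UMIs were fibroblasts, which is 1.14%. These 16 genes chose the nuclei, so their levels in fibroblasts are given as a description, without a test.

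The libraries came from 9 Kun Ming mice of 8 weeks, 3 germ-free (GF, numbered 5, 6 and 7), 3 specific pathogen-free (SPF, numbered 30, 31 and 32) and 3 colonized germ-free (CGF, numbered 17, 18 and 19), each giving 1 Hip and 1 PFC library. GF mice were raised in isolators without microbes, SPF mice carried a microbiota free of specific pathogens, and CGF mice were born germ-free and acquired microbes by sharing cages with SPF mice. The comparisons ask what the absence of microbes changed and what later colonization changed. GF against SPF and GF against CGF share the GF libraries, so these are not independent comparisons.

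Brain fibroblasts lie outside the neural tissue proper. Those of the leptomeninges form the pial and arachnoid layers, those of the dura form the outer membrane, and perivascular fibroblasts follow arterioles and larger vessels inside the brain. They lay down collagens and laminins, carry transporters that move organic anions, amino acids and neurotransmitters between blood, cerebrospinal fluid and brain, release proteins such as prostaglandin D2 synthase into that fluid, and secrete retinoic acid and BMP signals.

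The libraries held 20336250 to 71463928 UMIs and 5710 to 9055 kept nuclei, of which 16 to 187 were fibroblasts carrying 45793 to 624610 UMIs together. GF PFC libraries held 59126586 to 71463928 UMIs, SPF PFC 20336250 to 26949210 and CGF PFC 22213863 to 26151503, while the Hip libraries of all groups held 49067853 to 63217083. The median fibroblast had 937.5 to 3348 UMIs by library and the median other nucleus 2367 to 7722. Transcripts that every cell type shares also moved with group: Gm42418, which overlaps ribosomal RNA sequence, took 0.0355% to 0.0517% of fibroblast UMIs in GF PFC, 2.71% to 4.52% in SPF PFC and 3.17% to 6.24% in CGF PFC. Mitochondrial transcripts took 0.911% to 2.00% of them in the Hip of GF mice, against 0.290% to 0.440% and 0.144% to 0.501% in that of SPF and CGF mice. In PFC the order was the other way, with 0.947% to 1.16% in GF, 1.89% to 3.38% for SPF and 1.32% to 2.65% for CGF. The nuclear RNA Malat1 took 7.16% to 11.6% of fibroblast UMIs in GF Hip against 4.66% to 4.92% in SPF Hip, and in PFC at most 9.73% in GF against at most 5.93% in SPF. The part of depth and of these transcripts in the differences below was not tested by itself, and each library belongs to 1 group, so whatever was particular to the preparation of a group cannot be told apart from the group. All 153 pairs of libraries shared 6 to 29 cell barcodes, and 1 pair shared 1 barcode of a fibroblast.

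Over the summed nuclei, fibroblast markers outside the rule stood higher in fibroblasts than in other nuclei. Decorin (Dcn), a small proteoglycan, had a level in CPM (counts per 1 M UMIs of the summed nuclei) 11.5 times higher in fibroblasts than in all other nuclei by the median of 18 libraries, and was higher in 17 of them. The 7 fibroblast markers that the rule did not use had median ratios from 6.83, for the proteoglycan lumican (Lum), to 122, for Slc13a3. The genes that chose the nuclei had to be high and check nothing: the median ratio was 388 for Slc6a13, the GABA and taurine transporter of meningeal cells, with a range of 151 to 1844, and 177 for Ranbp3l, 115 for Col1a2 and 70.2 for Col1a1, the chains of type I collagen. At least 1 UMI of Slc6a13 was present in 56.6% of fibroblasts and 0.692% of other nuclei, and Dcn in 28.4% and 5.35%.

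Among genes with a median of at least 50 CPM in fibroblasts, the 20 outside the rule that stood highest against other nuclei included 5 solute carriers. The betaine and GABA transporter Slc6a12 had a median ratio of 252, the organic anion transporter Slc22a6 of 164, the sulfate transporter Slc13a4 of 158, the proline transporter Slc6a20a of 139 and the dicarboxylate transporter Slc13a3 of 122. Slc6a20a was detected in 64.1% of fibroblasts. The retinaldehyde dehydrogenase Aldh1a2, which makes retinoic acid, had a ratio of 239, the transcription factors Tfap2b and Prdm6 of 171 and 146, and the laminin chain Lama1 of 136. Others were Sphk1, the sphingosine kinase, at 138, the growth factor Bmp6 at 117, Ptgds, the prostaglandin D2 synthase of cerebrospinal fluid, at 114, and the basement membrane collagen Col4a6 at 111. By list, 21 of 32 solute carriers, 19 of 27 meningeal transcription factors, 11 of 15 basement membrane genes, 8 of 10 fibrillar collagens and 8 of 8 arachnoid markers were more than 2 times higher by the median, beside 4 of 6 pial and 4 of 8 dural markers. Among lists of other cells, 8 of 9 astrocyte, 4 of 12 mural, 2 of 12 endothelial, 1 of 11 microglia and macrophage, 1 of 8 oligodendrocyte and 1 of 10 neuron markers did so. Genes of the rule were not taken out of these lists. The collagens Col1a1 and Col1a2 had to be high, and the rule held down Aqp4, Atp13a5, Flt1, Cldn5, Csf1r, Mog and Mag. The counts for these lists are therefore partly set by the rule. The 12 mural markers summed to a median of 266 CPM in fibroblasts and 102 in other nuclei, although 1 of them, the pericyte marker Kcnj8, was at 0 in all fibroblasts.

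**Figure D1:**
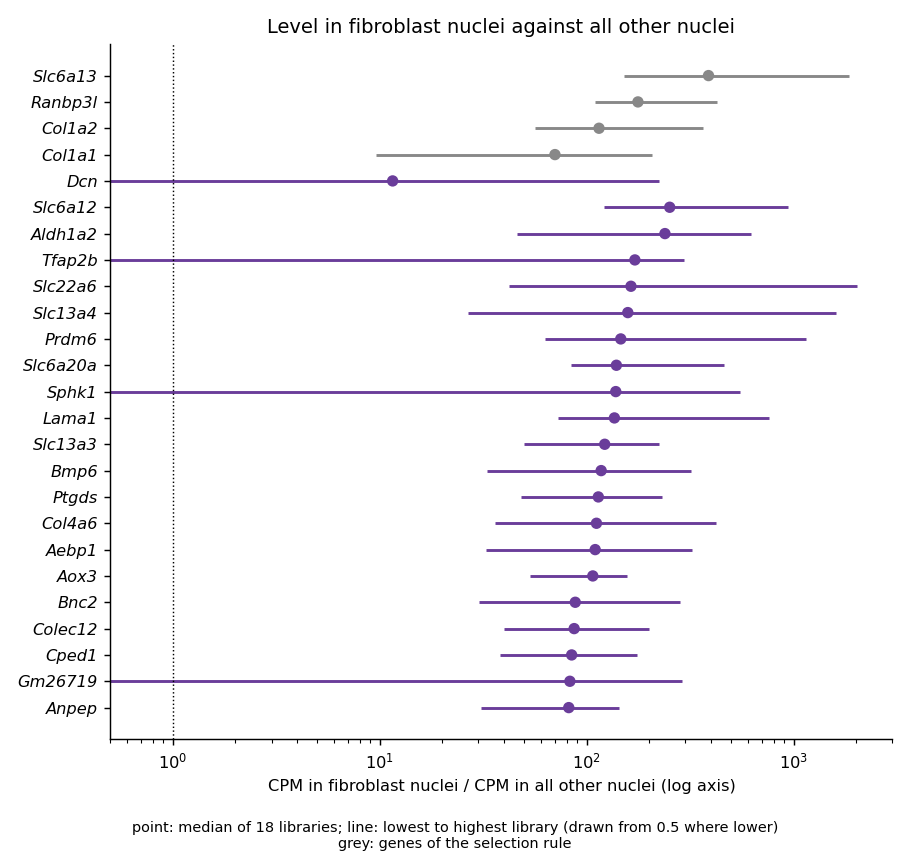
Ratio of CPM in fibroblasts to CPM in all other nuclei (log axis) for the rule's markers, Dcn and the 20 genes outside the rule with the highest median ratio among those with a median of at least 50 CPM in fibroblasts; points are the median of 18 libraries, lines run from the lowest to the highest library and are drawn from a ratio of 0.5 where lower, and grey marks genes of the rule. Slc6a13 is highest at a median of 388, and Dcn, at 11.5, is the lowest shown.

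The rule took in nuclei at its edge. At the cut itself, with 3 UMIs of the 4 marker genes, lay 324 fibroblasts (20.6%), and 698 nuclei lay 1 UMI below it. A further 585 nuclei reached 3 UMIs and failed the ratio to the other genes. Ranbp3l alone brought in 425 fibroblasts (27.0%), and 553 (35.1%) had no UMI of any of the 12 excluded genes. Doublets were not called. Main counts below are therefore also given without 324 nuclei that clustered by genes of another cell type.

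Clustering of the 1575 fibroblasts gave 9 clusters. They are described by their leading genes, since the clustering used these genes. Clusters 1 and 2 held 423 and 295 nuclei. In cluster 1, 3 of 6 pial markers were more than 2 times higher than in other fibroblasts, and in cluster 2 none was (0 of 6). Cemip, a hyaluronan-degrading protein, had 1627 CPM in cluster 1 and 602 in cluster 2, and Lama1 had 1397 and 474 CPM, beside 622 in cluster 3. The interleukin 31 receptor Il31ra reached 621 CPM in cluster 2 against 285 in cluster 1. The cystine transporter Slc7a11 had 3126 and 2705 CPM in these clusters and no more than 651 CPM in any other. Cluster 3, with 254 nuclei, was led by the pericyte gene Atp13a5, an excluded gene of the rule, at 485 CPM against 38.9 in other fibroblasts. The 12 mural markers summed to 584 CPM there against 222 in other fibroblasts, with 2 of them more than 2 times higher. Cluster 3 also had the highest Ptgds level, 10340 CPM against 1548 in cluster 1, and the highest level of the organic anion transporter Slc22a8, 526 CPM. Its nuclei were 21 of 133 in GF Hip, 12 of 225 in SPF Hip and 37 of 377 in CGF Hip, and 88 of 440, 46 of 173 and 50 of 227 in the PFC of these groups.

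Clusters 6 and 8 were high in genes of the dural and arachnoid lists. Cluster 6 (84 nuclei) was led by the organic cation exporter Slc47a1, at 1577 CPM, and the bicarbonate transporter Slc4a10, at 3663 CPM, with 7 of 8 dural markers more than 2 times higher than in other fibroblasts. Its level of the mineralization inhibitor Mgp was 948 CPM and that of the growth factor binding protein Igfbp5 1409 CPM. Slc6a13 was at 27.1 CPM there, and the type I collagen chain Col1a2 at 951 CPM. Cluster 8 (74 nuclei) was led by lubricin, Prg4, at 953 CPM, with fibronectin (Fn1) at 2205, the dipeptidase Dpp4 at 793, E-cadherin (Cdh1) at 604 and the tight junction gene Cldn11 at 648 CPM. Dpp4, Cdh1 and Cldn11 are on the arachnoid list, of which 4 of 8 markers were more than 2 times higher than in other fibroblasts, as were 4 of 8 in cluster 6 and 3 of 8 in cluster 3. The summed level of the arachnoid list was 11006 CPM in cluster 3, which is high in its member Ptgds, 6026 in cluster 5, 5377 in cluster 8 and 3988 in cluster 6. Of the nuclei of cluster 8, 55 entered through Ranbp3l alone, and Slc6a13 was at 9.67 CPM there. The nuclei of cluster 6 were 51 in GF PFC, 4 in SPF PFC and 10 in CGF PFC, against 4, 6 and 9 in Hip. Those of cluster 8 were 29, 9 and 15 in PFC and 10, 2 and 9 in Hip. Since genes that define clusters 3, 6 and 8 also differ between groups, their sizes are no separate measurement.

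The label did not hold for clusters 4, 7 and 9, in which at least 5 markers of another cell type were more than 2 times higher than in other fibroblasts and their summed level at least 3 times higher. In cluster 4 (229 nuclei) 8 of 9 astrocyte markers were more than 2 times higher than in other fibroblasts, the glutamate transporter Slc1a2 was at 6517 CPM and Slc6a13 at 35.1 CPM, and 198 nuclei had entered through Ranbp3l alone. Cluster 7 (79 nuclei, median 8497 UMIs) had 7 of 10 neuron markers raised in this sense and cluster 9 (16 nuclei) 7 of 11 macrophage markers. In cluster 2, 6 of 12 endothelial markers were raised in this sense, with a sum of 400 CPM against 221 in other fibroblasts, which is under 3 times, so it was kept. Cluster 5 (121 nuclei) had a median of 804 UMIs and was led by Gm26870 and Gm42418, so it was left without a name. It held 23 of 440 fibroblasts of GF PFC, 35 of 173 of SPF PFC and 34 of 227 of CGF PFC, and stayed in the sums compared.

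**Figure D2:**
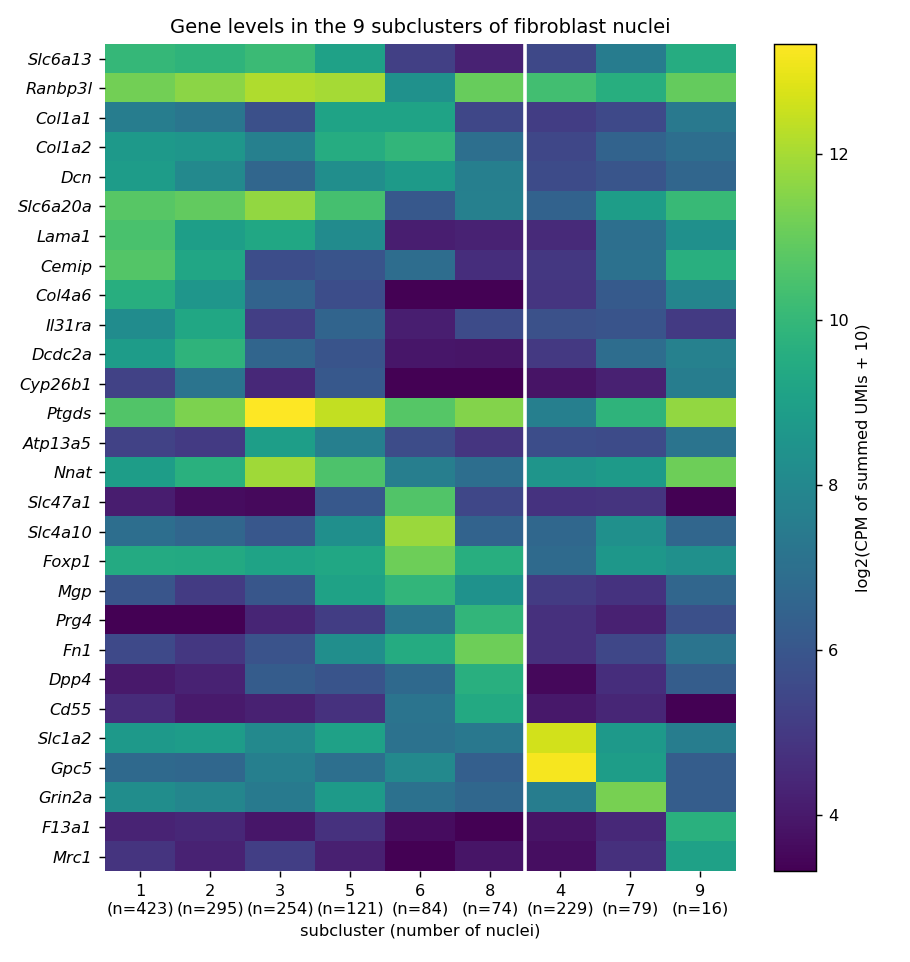
Heat map of log2(CPM + 10) of leading genes (rows) in the summed UMIs of each of the 9 clusters of fibroblast nuclei (columns, numbered by size); the white line sets off clusters 4, 7 and 9. Slc47a1 marks cluster 6 at 1577 CPM, Prg4 cluster 8 at 953 CPM and Slc1a2 cluster 4 at 6517 CPM.

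The share of fibroblasts among kept nuclei was lowest in GF mice in Hip and highest in GF mice in PFC. In Hip it was 0.197%, 0.536% and 0.811% in the GF mice, 0.515%, 1.38% and 1.07% in the SPF mice and 1.97%, 1.21% and 1.78% in the CGF mice. GF lay below CGF without overlap, and GF and SPF overlapped. In PFC it was 1.59%, 1.68% and 2.07% in GF, 0.630%, 0.639% and 1.26% in SPF and 1.10%, 1.24% and 0.754% in CGF. Every GF library lay above every SPF and CGF library. The exact permutation test over the 3 groups gave p = 0.0429 in Hip and p = 0.0321 in PFC (adjusted p = 0.0429 for both). Between pairs, where 3 mice against 3 cannot go below 0.1, the exact permutation p was 0.3 for GF and SPF in Hip and 0.1 in PFC, with means of 0.515% ± 0.308 and 0.987% ± 0.439 in Hip and 1.78% ± 0.254 and 0.845% ± 0.364 in PFC (SD, n = 3). Each mouse gave both regions, and the share in Hip minus that in PFC was −1.39, −1.14 and −1.25 percentage points in GF, −0.116, 0.743 and −0.200 in SPF and 0.867, −0.0327 and 1.02 in CGF (exact permutation p = 0.00714, and the same with nuclei thinned to 1000 UMIs). All GF mice lay below all others on this measure. Its p was not adjusted, and stricter rules were not run for it. Thinning left out nuclei under 1000 UMIs, among them 213 fibroblasts and 8207 other nuclei. The median fibroblast had 968 to 1131 UMIs in SPF PFC and 937.5 to 1181.5 in CGF PFC, against 2082.5 to 2575 in GF PFC. The thinned shares therefore do not separate depth from group.

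These shares depended on the rule and on single mice. Among nuclei with no UMI of the excluded genes the exact permutation p was 0.443 in Hip and 0.775 in PFC. In Hip it was 0.0607 on thinned nuclei and 0.0536 with at least 5 marker UMIs, and it rose to 0.0821 to 0.118 without CGF mouse 17, CGF mouse 19, GF mouse 5, GF mouse 6 or SPF mouse 32 and to 0.05 without GF mouse 7. In PFC it was 0.114 as a share of vascular nuclei, 0.0536 without clusters 4, 7 and 9 or without CGF mouse 17, and 0.0893 without GF mouse 7. The share of endothelial nuclei, chosen the same way, gave p = 0.839 in Hip and 0.0964 in PFC and that of mural nuclei 0.143 and 0.411 by the same exact test.

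**Figure D3:**
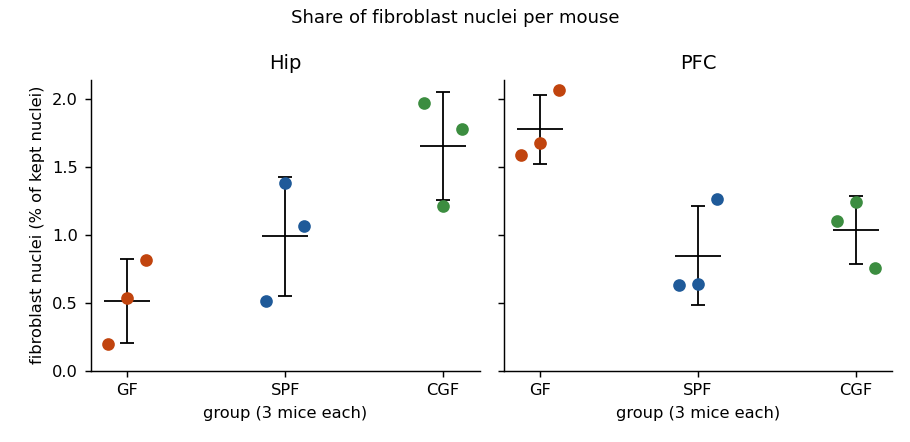
Share of kept nuclei that were fibroblasts, in percent, for GF, SPF and CGF mice in Hip and PFC; points are mice, and lines with bars the mean ± SD of 3. GF shares average 0.515% in Hip and 1.78% in PFC.

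In Hip, fibroblasts of GF mice had more RNA of proteins secreted into cerebrospinal fluid and of arachnoid genes than those of SPF mice. Of 7093 genes tested on UMI sums per mouse (edgeR, adjusted p below 0.05), 218 were higher in GF (3.07%) and 172 lower (2.42%), together 5.5%, and for 24.7% the CPM of GF and SPF did not overlap. In these comparisons fibroblast levels are scaled CPM, per 1 M UMIs of the genes tested after scaling between libraries, which are 1.02 to 1.14 times the plain CPM of the same sums in Hip, 1.34 to 1.4 times in PFC and 1.09 to 1.23 times where Hip and PFC are compared. Levels in clusters and in other nuclei are plain CPM. With no filter on low counts the balance turned, to 203 higher and 352 lower. Among prostaglandin and cerebrospinal fluid proteins 6 of 7 tested were higher (Ptgds, Apod, Apoe, Cst3, Clu and Mgp), with a median log2 fold change of 1.62 against −0.02 over all genes. Of the arachnoid list 4 of 7 were higher (Cdh1, Dpp4, Cldn11 and Ptgds). Of the genes named in these lists, Mgp, Dpp4 and Cldn11 also differed from the change in other nuclei, and the others did not. None of the 4 fibrillar collagens, 12 other collagens, 13 basement membrane genes, 14 transcription factors, 19 BMP and TGF-beta receptors and inhibitors or 3 pial genes tested passed in either direction.

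Ptgds (chromosome 2, 25466709 to 25470046 on the minus strand of GRCm38) had 2803, 3853 and 5436 CPM in the GF Hip libraries, 394, 1005 and 879 in SPF and 1331, 1493 and 1559 in CGF. All GF libraries lay above all CGF libraries, and these above all SPF libraries. The share of nuclei in cluster 3, which is highest in Ptgds, had the same order, with 21 of 133, 37 of 377 and 12 of 225 nuclei. The log2 fold change was 2.39 ± 0.32 (SE) against SPF (adjusted p = 0.000954) and 1.48 ± 0.31 against CGF (adjusted p = 0.00483). In the summed other nuclei of the same libraries Ptgds, which oligodendrocytes also make, was higher in GF by 1.32, and the excess of the fibroblast change over it, 0.99 ± 0.29, did not pass (adjusted p = 0.0822). Here and below, the SE and p of such differences rest on a spread shared with the larger sums of other nuclei. They do not measure the spread of fibroblast sums alone.

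Fibronectin, a matrix glycoprotein (Fn1; chromosome 1, 71585520 to 71653200, minus strand), had 868, 312 and 488 CPM in GF Hip, 96.0, 129 and 146 in SPF and 76.9, 106 and 75.9 in CGF. GF did not overlap with either group, at a log2 fold change of 1.97 ± 0.30 against SPF (adjusted p = 0.0031) and 2.57 ± 0.30 against CGF (adjusted p = 0.000183). Other nuclei changed by −0.26, and the change in fibroblasts exceeded theirs by 2.03 ± 0.26 (adjusted p = 9.31e-11). This SE is below that of the fibroblast change itself, as the spread is shared with the other nuclei. Fn1, Dpp4, Prg4 and Cldn11 had their highest level in cluster 8, which held 10 of 133 fibroblasts of GF Hip, 2 of 225 of SPF Hip and 9 of 377 of CGF Hip, so the sums compared differ in this cluster.

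Dpp4, a membrane peptidase of arachnoid cells (chromosome 2, 62330073 to 62412231, minus strand), had 178, 156 and 85.5 CPM in GF Hip, 9.6, 26.5 and 22.7 in SPF and 51.3, 35.3 and 64.8 in CGF. The lowest GF library was above the highest of the other groups, but among nuclei with no excluded UMI the log2 fold change against CGF turned from 1.28 to −0.37 (adjusted p = 0.861). The rise over SPF was 2.49 ± 0.43 (adjusted p = 0.00366) and exceeded that of other nuclei by 2.11 ± 0.56 (adjusted p = 0.0496). Its SPF values rest on 1, 8 and 7 UMIs. Lubricin (Prg4), which leads the same cluster of nuclei, had 245, 119 and 241 CPM in GF, 86.4, 23.1 and 3.24 in SPF and 34.2, 81.2 and 49.1 in CGF. It rose by 2.96 ± 0.54 over SPF (adjusted p = 0.00493) with no overlap between GF and the other groups. The SPF values of Prg4 also rest on few UMIs.

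The matrix Gla protein Mgp (chromosome 6, 136872435 to 136875823, minus strand) had 222, 104 and 593 CPM in GF Hip, 9.6, 95.9 and 26 in SPF and 36.3, 28.2 and 46.9 in CGF. GF mouse 6 was only just above SPF mouse 31. The log2 fold change was 2.70 ± 0.52 (adjusted p = 0.00665), larger than in other nuclei by 1.88 ± 0.42 (adjusted p = 0.00628). Igfbp6, a binding protein for insulin-like growth factor II, had 356, 59.4 and 166 CPM in GF, 0, 29.8 and 22.7 in SPF and 19.2, 38.8 and 13.4 in CGF. It rose by 2.82 ± 0.57 (adjusted p = 0.00787) without overlap. Its SPF values rest on few UMIs, and it passed the filter on low counts through its GF libraries. Other Hip nuclei had 8.98 to 11.8 CPM of Igfbp6 in GF and 2.41 to 4.11 in SPF. Of 21 growth factors and binding proteins tested 3 rose, beside 3.07% of all genes tested. Those besides Igfbp6 were Igfbp5 (1.22 ± 0.34, adjusted p = 0.0396) and Igfbp2 (1.06 ± 0.29, adjusted p = 0.0351).

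The apolipoprotein Apoe had 2870, 2487 and 2529 CPM in GF Hip, 1037, 780 and 688 in SPF and 568, 907 and 1233 in CGF, a log2 fold change of 1.66 ± 0.28 over SPF (adjusted p = 0.00337). Cystatin C (Cst3), a protease inhibitor, had 1691, 1678 and 1936 CPM in GF and no more than 654 in any other Hip library (1.62 ± 0.27, adjusted p = 0.0031). Both also differed between GF and SPF in other nuclei, by 1.18 for Apoe and 1.48 for Cst3, and the differences from those changes, 0.32 and −0.05, did not pass (adjusted p = 0.89 and 1). In the other nuclei 8984 of 19814 genes (45.3%) passed between GF and SPF Hip.

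Among 24 solute carriers and pumps 3 were higher and 1 lower, beside 3.07% and 2.42% of all genes tested. The organic anion transporter Slc22a8 (chromosome 19, 8591254 to 8611835, plus strand) had 356, 267 and 302 CPM in GF Hip, 125, 142 and 94.1 in SPF and 141, 198 and 223 in CGF. GF was above both without overlap, by 1.32 ± 0.27 over SPF (adjusted p = 0.00787), and the change exceeded that in other nuclei by 1.63 ± 0.35 (adjusted p = 0.00358). The sulfate transporter Slc13a4 rose by 1.18 ± 0.30 (adjusted p = 0.0227) and the monocarboxylate transporter family member Slc16a11 by 1.98 ± 0.34 (adjusted p = 0.00366). Other Hip nuclei had 36.8 to 41.2 CPM of Slc16a11 in GF and 10.0 to 13.4 in SPF. Slc22a8 and Slc13a4 had their highest level in cluster 3, which held 21 of 133 fibroblasts of GF Hip and 12 of 225 of SPF Hip. Slc7a11, the cystine and glutamate exchanger, fell: it had 1068, 958 and 679 CPM in GF, 1757, 1984 and 1827 in SPF and 2334, 2216 and 1883 in CGF. All GF values were below all others, with a log2 fold change of −1.07 ± 0.25 against SPF (adjusted p = 0.0163) and −1.28 ± 0.25 against CGF (adjusted p = 0.00328). Its excess over the change in other nuclei was −0.75 (adjusted p = 0.358). The predicted gene Gm20754 had 22.2, 74.2 and 35.2 CPM in GF and 355, 463 and 279 in SPF (−2.93 ± 0.38, adjusted p = 0.000954), a fall that exceeded that of other nuclei (difference −2.66 ± 0.44, adjusted p = 6.29e-06).

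Of the 20 genes outside the rule listed by their ratio to other nuclei, Ptgds, Slc13a4, Sphk1 (2.33 ± 0.53, adjusted p = 0.0136) and Aebp1 (1.11 ± 0.29, adjusted p = 0.0265) were higher in GF Hip than in SPF Hip and the others did not pass. Of all genes tested 5.5% passed. Slc6a20a had 1490, 1499 and 1514 CPM in GF Hip and 1085, 956 and 1398 in SPF, a log2 difference of 0.39 ± 0.24 (adjusted p = 0.368). Lama1 had 756, 520 and 297 CPM in GF and 951, 519 and 691 in SPF, which overlapped (−0.54 ± 0.31, adjusted p = 0.333). Bmp6 had a difference of 0.34 ± 0.24 (adjusted p = 0.445). Dcn, which is not among these 20 genes, had 0.66 ± 0.28 (adjusted p = 0.168). Of 8 retinoid genes tested 1 passed, beside 5.5% of all genes. This was the retinaldehyde dehydrogenase Aldh1a1, lower by 1.57 ± 0.41 (adjusted p = 0.0284).

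Of 175 genes tested in the 17 lists of fibroblast and meningeal genes, 19 were higher (10.9%) and 4 lower (2.29%) in GF Hip, beside 3.07% and 2.42% of all genes tested. Of these 6 higher and 0 lower also differed from the change in other nuclei (Cldn11, Dpp4, Fn1, Mgp, Slc13a4 and Slc22a8), where 72 of 18500 genes (0.389%) did so in all, 35 upwards (0.189%) and 37 downwards (0.2%), and 26 and 139 without clusters 4, 7 and 9. Markers of other cells moved as well. Summed mural markers reached 307 to 356 CPM in the GF sums, against 192 to 214 for SPF and 184 to 536 for CGF, with Kcnj8 at 0 in all 3 groups, and 1 of 2 tested, Vtn, was higher in GF (1.81 ± 0.40, adjusted p = 0.0124). Summed neuron markers were 3292 to 7095 CPM in GF and 8157 to 8305 in SPF, and oligodendrocyte markers 416 to 512 and 598 to 816, neither overlapping. Astrocyte markers were 3199 to 4649 CPM in GF and 3511 to 5137 in SPF, and 0 of 6 tested passed. Fewer fibroblasts of one layer and less RNA per fibroblast cannot be told apart in such sums. Of 45 named genes that passed, 5 kept their call under every alternative run (Apoe, Cst3, Gm42418, Mrpl20 and Ptgds). Without clusters 4, 7 and 9 the counts were 220 higher and 227 lower, of which 264 in all were also among the 390 found with them. Without GF mouse 7, the deepest of the GF Hip sums, 79 genes passed in place of 390, and without SPF mouse 31 or 30 the count was 167 or 219. On sums thinned to equal depth it was 80 of 1155 tested (6.93%, beside 5.5% of 7093).

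**Figure D4:**
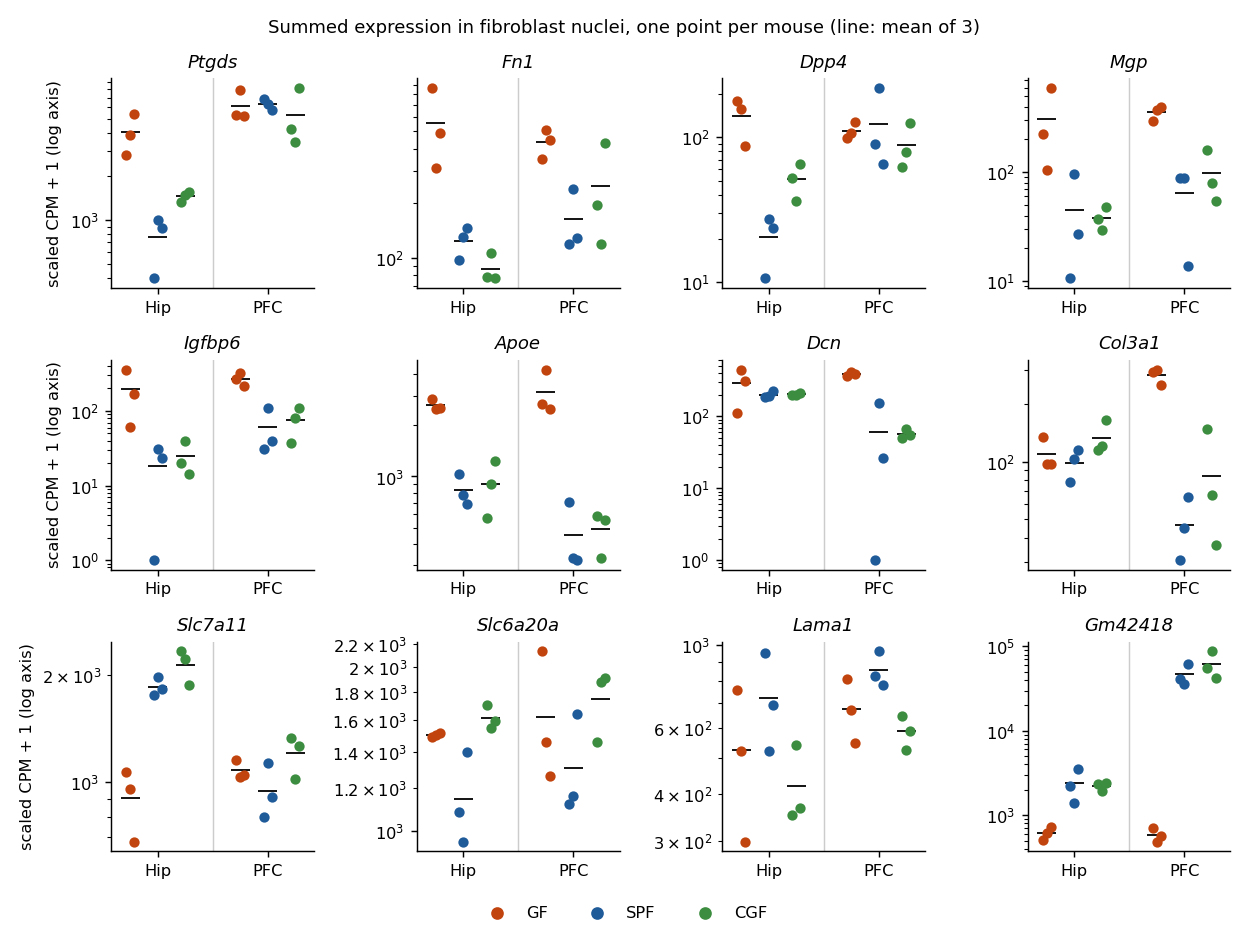
Scaled CPM + 1 (log axis) of 12 genes in fibroblast sums of each mouse, GF, SPF and CGF in Hip and PFC; points are mice and short lines group means. Ptgds is highest in GF in Hip, at 2803 to 5436 CPM, and overlaps between groups in PFC, while Gm42418 lies at 480 to 710 scaled CPM in GF PFC and 36173 to 62410 in SPF PFC.

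Fibroblasts of GF Hip also differed from those of CGF Hip. This comparison gave 371 higher (5.23%) and 244 lower genes (3.44%) of 7093, together 8.67%, with 29.5% not overlapping, with 6 of 7 cerebrospinal fluid proteins and 4 of 7 arachnoid genes higher again and Aldh1a2 lower (−1.05 ± 0.27, adjusted p = 0.0172). In CGF against SPF 1 gene passed (0.0141%) and 572 had an unadjusted p under 0.05. This was Mid1, a microtubule-associated ubiquitin ligase, with 214, 427 and 337 CPM in CGF and 67.2, 95.9 and 71.4 in SPF (1.99 ± 0.31, adjusted p = 0.0141). Other Hip nuclei had 228 to 440 CPM of Mid1 in CGF and 38.8 to 66.1 in SPF, and no gene passed (0) without CGF mouse 18 or 19 or SPF mouse 30 or 32. For GF against CGF the balance turned with no filter, to 339 higher and 500 lower, and without clusters 4, 7 and 9 there were 344 and 263. The GF against CGF count fell to 190 without GF mouse 7 and 280 without CGF mouse 17. DESeq2 gave 377, and 303 genes passed in nuclei with at least 5 marker UMIs.

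In PFC, fibroblasts of GF mice had more RNA of several matrix glycoproteins, of the proteoglycan Dcn and of cerebrospinal fluid proteins than those of SPF mice. Of 3041 genes tested, 301 were higher (9.9%) and 327 lower (10.8%), together 20.7%, and 37.7% did not overlap between GF and SPF. Among lists 3 of 4 fibroblast markers (Dcn, Col3a1 and Slc47a1), 5 of 8 matrix proteoglycans and glycoproteins (Dcn, Fn1, Fbln1, Efemp1 and Sparc), 5 of 6 cerebrospinal fluid proteins (Apod, Apoe, Cst3, Clu and Mgp) and 2 of 3 dural genes (Mgp and Fxyd5) were higher. The medians were 2.60, 1.42, 2.30 and 2.16 on the log2 scale against −0.01 over all genes. Of the genes named in these lists, Apoe, Cst3, Clu and Fxyd5 also differed from the change in other nuclei, and none of the matrix glycoproteins or Dcn did. Dcn and Col3a1 passed the filter on low counts through their GF libraries, so the tested members of a list lean towards genes high in GF. Of 8 growth factors and binding proteins 3 were higher (Igfbp2, Igfbp5 and Igfbp6) and 1 lower (Bmp7). None of 5 basement membrane genes, 7 other collagens or 3 pial genes passed, beside 20.7% of all genes tested.

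Dcn (chromosome 10, 97479609 to 97518143, plus strand) had 365, 419 and 391 CPM in GF PFC, 0, 153 and 25.6 in SPF and 48.9, 65.6 and 53.5 in CGF. GF did not overlap with the others, although the SPF values rest on 0, 7 and 2 UMIs. The log2 fold change was 2.75 ± 0.45 over SPF (adjusted p = 0.000219) and 2.79 ± 0.41 over CGF (adjusted p = 5.37e-05), and in other nuclei Dcn rose by 2.06, so that the difference of 0.75 ± 0.64 did not pass (adjusted p = 0.808). The type III collagen Col3a1 had 292, 301 and 251 CPM in GF, 29.5, 43.7 and 64.0 in SPF and 147, 65.6 and 35.7 in CGF. It was higher in GF than in either group without overlap (2.45 ± 0.42 over SPF, adjusted p = 0.000345), although the SPF values of Col3a1 also rest on few UMIs. Other PFC nuclei had 1.76 to 2.86 CPM of Col3a1 in GF and 0.592 to 0.729 in SPF.

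Slc47a1 had 398, 373 and 420 CPM in GF PFC, 29.5, 131 and 25.6 in SPF and 318, 144 and 35.7 in CGF. CGF mouse 17 came close to the GF mice and CGF mouse 19 to the SPF mice, and GF exceeded SPF by 2.77 ± 0.53 (adjusted p = 0.000811). In the SPF libraries Slc47a1 rests on few UMIs. Other PFC nuclei had 7.59 to 11.6 CPM of Slc47a1 in GF and 1.85 to 2.40 in SPF. Igfbp5 (chromosome 1, 72857932 to 72874884, minus strand) had 531, 739 and 571 CPM in GF, 118, 349 and 64.0 in SPF and 195, 170 and 71.3 in CGF. It did not overlap between GF and the others (1.90 ± 0.39, adjusted p = 0.0016) beside 0.03 ± 0.15 in other nuclei, so that the changes differed by 1.94 ± 0.31 (adjusted p = 5.28e-07). Slc47a1, Igfbp5, Mgp and Fxyd5 had their highest level in cluster 6, which held 51 of 440 fibroblasts of GF PFC, 4 of 173 of SPF PFC and 10 of 227 of CGF PFC, so that the sums compared were made up of different parts of the clusters.

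Apoe had 2685, 4260 and 2510 CPM in GF PFC, 708, 328 and 320 in SPF and 586, 328 and 553 in CGF. All GF libraries lay above all SPF and CGF libraries. The rise of 2.89 ± 0.32 over SPF (adjusted p = 3.53e-06) exceeded that of other nuclei by 1.32 ± 0.29 (adjusted p = 0.000908), but not that of endothelial nuclei (difference −0.05, adjusted p = 0.969). Cst3 rose by 2.28 ± 0.28 and exceeded other nuclei by 1.15 (adjusted p = 0.00563). Fxyd5, a regulator of the sodium pump and of adhesion, had 138, 141 and 225 CPM in GF, 29.5, 65.5 and 25.6 in SPF and 24.4, 52.4 and 53.5 in CGF. It rose by 2.16 ± 0.51 in fibroblasts (adjusted p = 0.00513) against −1.5 in other nuclei, a difference of 3.65 ± 0.46 (adjusted p = 1.28e-11). Its SPF values rest on few UMIs, and it passed the filter on low counts through its GF libraries.

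Ebf1, a transcription factor of mesenchymal and lymphoid cells, had 223, 217 and 166 CPM in GF PFC, 0, 65.5 and 102 in SPF and 61.1, 118 and 0 in CGF. GF was above the others without overlap (1.52 ± 0.52, adjusted p = 0.0422), against −0.69 in other nuclei (difference 2.37 ± 0.43, adjusted p = 1.98e-05). Ebf1 passed the filter on low counts through its GF libraries, where it was high. The Tie2 ligand Angpt1 had 349, 244 and 282 CPM in GF, 118, 65.5 and 38.4 in SPF and 110, 184 and 107 in CGF. It rose by 2.17 ± 0.40 over SPF (adjusted p = 0.000627) and by more than in endothelial nuclei (difference 3.52 ± 0.68, adjusted p = 0.00391) or all other nuclei (2.13 ± 0.44, adjusted p = 0.000348). Angpt1 also rests on few UMIs in SPF, and it passed the filter on low counts through its GF libraries.

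Some signalling and matrix genes fell in GF PFC. Aebp1, a collagen-binding protein, had 454, 579 and 380 CPM in GF, 1416, 1136 and 1458 in SPF and 1100, 918 and 1052 in CGF. GF lay below both without overlap (−1.51 ± 0.22 against SPF, adjusted p = 7.7e-05) and the fall exceeded that in other nuclei (difference −0.84 ± 0.23, adjusted p = 0.0197). Sphk1 had 150, 110 and 76.5 CPM in GF, 295, 393 and 333 in SPF and 257, 184 and 160 in CGF (−1.66 ± 0.30, adjusted p = 0.000517; difference from other nuclei −1.71 ± 0.50, adjusted p = 0.0447). Slc6a12 fell by 2.06 on the log2 scale (SE 0.44, adjusted p = 0.00219), the growth factor Bmp7 by 0.92 (SE 0.29, adjusted p = 0.0308) and Smad3, which carries TGF-beta signals, by 0.85 (SE 0.24, adjusted p = 0.0171). Smad3 was 276, 259 and 243 CPM in GF and 295, 546 and 512 in SPF and changed by 0.10 in other nuclei (difference −0.89 ± 0.26, adjusted p = 0.0459).

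Il31ra (chromosome 13, 112519898 to 112594360, minus strand) did not pass between GF and SPF in PFC fibroblasts, while its level in other PFC nuclei was lower in GF. It had 341, 168 and 103 CPM in GF PFC fibroblasts, 266, 131 and 217 in SPF and 293, 223 and 374 in CGF, which overlapped (−0.05 ± 0.44, adjusted p = 0.945). In the other PFC nuclei its level was 1.67 to 2.20 CPM in GF mice, against 81.4 to 115 for SPF and 115 to 169 for CGF. These are plain CPM, and the fibroblast values are scaled CPM, 1.34 to 1.4 times the plain ones in PFC. The lower SPF and CGF fibroblast values therefore lie near the level of other nuclei. The change differed between fibroblasts and other nuclei by 5.60 ± 0.29 (adjusted p = 2.25e-77) and between fibroblasts and endothelial nuclei by 4.12 ± 0.53 (adjusted p = 8.61e-07). In other Hip nuclei it was 1.13 to 4.18 CPM over all groups.

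Of 102 genes tested in the fibroblast and meningeal lists, 23 were higher (22.5%) and 5 lower (4.9%) in GF PFC, beside 9.9% and 10.8% of all genes tested, and 7 higher (Apoe, Clu, Cst3, Ebf1, Fxyd5, Igfbp5 and Igfbp6) and 1 lower (Smad3) also differed from the change in other nuclei, where 281 of 17046 genes (1.65%) did so in all, 234 upwards (1.37%) and 47 downwards (0.276%), and 196 and 141 (337 in all) without clusters 4, 7 and 9. List genes such as Fxyd5 and Ebf1 passed the filter on low counts through the GF libraries in which they were high. The share of list genes that rose is therefore partly set by the filter. In other PFC nuclei 11555 of 18358 genes (62.9%) passed between GF and SPF. Gm42418 changed by −6.32 on the log2 scale in fibroblasts and by −6.40 in other nuclei. Summed mural markers reached 310 to 407 CPM for GF, 306 to 620 for SPF and 250 to 551 for CGF, with Kcnj8 at 0 in each. Summed endothelial markers were 358 to 458 CPM for GF and 88.5 to 320 for SPF, and microglia and macrophage markers 227 to 313 and 118 to 205, both without overlap. Astrocyte markers were 4170 to 5433, 5257 to 7907 and 5389 to 5919 CPM and neuron markers 7977 to 9447, 6793 to 8903 and 6035 to 7893. Without clusters 4, 7 and 9 there were 274 higher and 278 lower genes, 437 of them shared with the 628 above. Without SPF mouse 32, which held most of the SPF PFC fibroblasts, 379 passed. Thinned to equal depth it was 144 of 1086 tested (13.3%), and with no filter on low counts 999, of which 715 were higher and 284 lower.

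GF against CGF in PFC gave 350 higher (11.5%) and 369 lower (12.1%) genes, together 23.6%, with 40.9% not overlapping, and CGF against SPF gave 0, with 182 at an unadjusted p under 0.05 by edgeR and 1 passing by DESeq2. Without clusters 4, 7 and 9 there were 303 higher and 274 lower in GF than in CGF. Apoe (2.69), Dcn (2.79), Igfbp5 (2.00), Mgp (1.80), Slc47a1 (1.15) and Fxyd5 (2.02) were higher in GF than in CGF, all past the threshold. Bmp6, which did not pass in Hip, was higher in GF than in CGF as well (0.82, adjusted p = 0.0065).

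**Figure D5:**
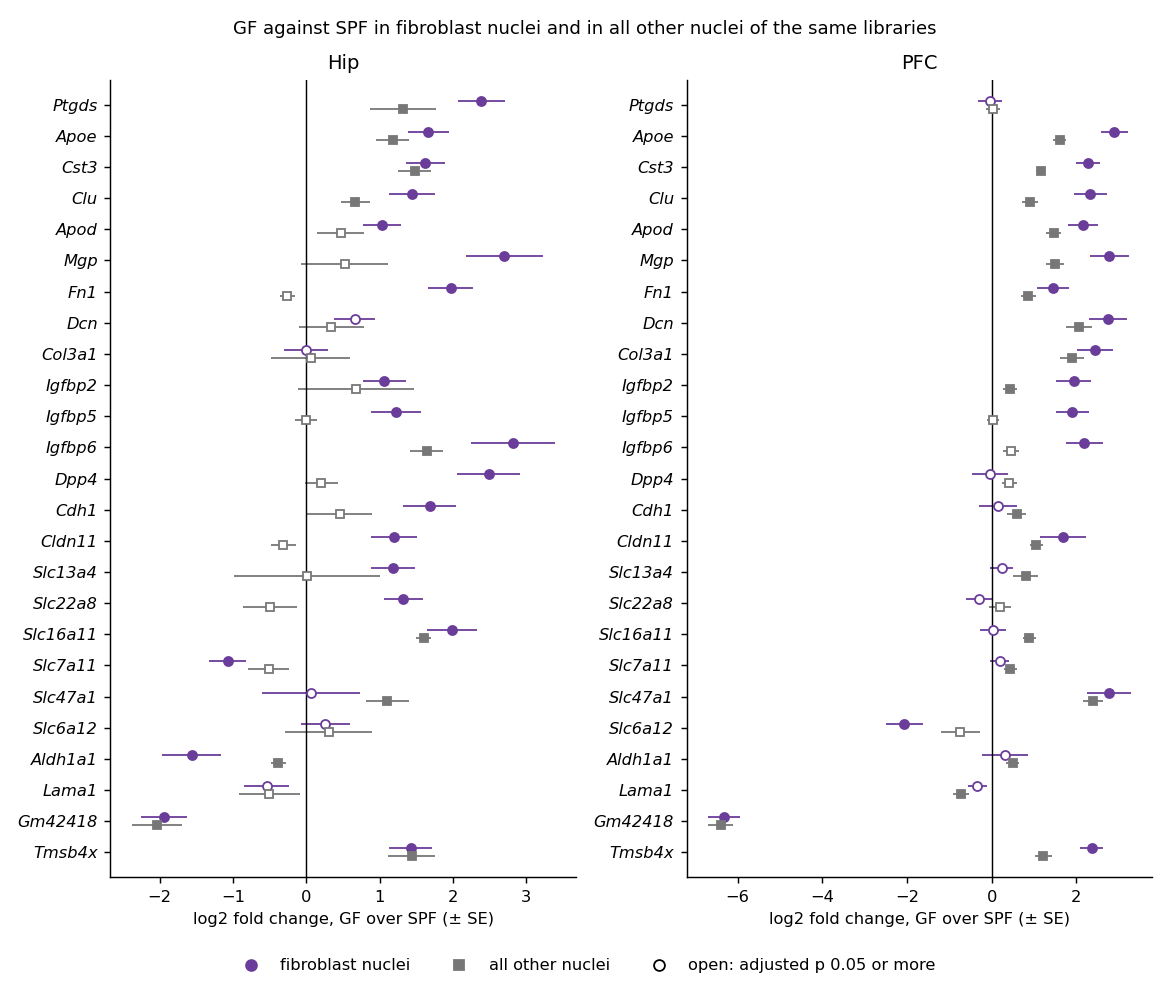
Log2 fold change of GF over SPF (± SE) in fibroblasts (purple circles) and in all other nuclei of the same libraries (grey squares) for 25 named genes in Hip and PFC; open symbols have an adjusted p of 0.05 or more. Fn1 in Hip (1.97 against −0.26) and Igfbp5 in PFC (1.90 against 0.03) lie apart in fibroblasts and other nuclei, while Cst3 in Hip (1.62 against 1.48) lies close.

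Within mice of 1 group, fibroblasts of Hip and PFC differed little in GF and more in SPF and CGF. In 1 fit of all 18 libraries, 5 of 5964 genes (0.0838%) passed in GF mice, 3 higher in Hip (0.0503%) and 2 lower (0.0335%), and 477 had an unadjusted p under 0.05. In SPF mice 849 (14.2%) passed, 381 higher (6.39%) and 468 lower (7.85%), and in CGF mice 1037 (17.4%), 473 higher (7.93%) and 564 lower (9.46%). The groups of libraries did not overlap for 14.7% of genes in GF mice. With the mouse as a block, since Hip and PFC came from the same animal, the GF count was 20. Depth differed between regions in every group: the fibroblast sums of GF mice held 46014 to 227367 UMIs in Hip and 338496 to 624610 in PFC, those of SPF mice 113376 to 333953 and 45793 to 107937, and those of CGF mice 315183 to 535064 and 75403 to 113226. Gm42418 took 0.05% to 0.0625% of fibroblast UMIs in GF Hip, close to its share in GF PFC, but 0.125% to 0.334% in SPF Hip and 0.173% to 0.221% in CGF Hip, far below its shares in the PFC of these groups. The part of these shares in the region counts was not tested. With no filter on low counts the balance of calls turned, to 514 higher and 289 lower in SPF mice and 752 and 385 in CGF mice.

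In GF mice Adamts12, a matrix metalloprotease, had 741, 303 and 222 CPM in Hip and 100, 88.9 and 94.6 in PFC. Every Hip value was above every PFC value (1.92 ± 0.33, adjusted p = 0.00648). The hedgehog-binding protein Hhip had 0, 7.77 and 5.15 CPM in Hip and 83.4, 108 and 153 in PFC (−4.29 ± 0.81, adjusted p = 0.0159) and the transcription factor Mef2c 215, 210 and 191 against 481, 549 and 509 (−1.34 ± 0.26, adjusted p = 0.0159). Neither overlapped. In other GF nuclei Mef2c had 271 to 386 CPM in Hip and 750 to 911 in PFC, while their level of Hhip was 5.48 to 6.34 and 4.95 to 6 and that of Adamts12 1.80 to 4.53 and 1.79 to 3.23. Hhip had 417 CPM in cluster 6 and at most 20.5 in any other, and this cluster held 4 of 133 GF fibroblasts in Hip and 51 of 440 in PFC. The choroid plexus transcript Ttr passed too but overlapped, with 0, 4900 and 912 CPM in Hip and 6.68, 0 and 1.82 in PFC, and Nkain3, an interactor of the sodium pump, was at 2.78 with all nuclei and 0.84 without clusters 4, 7 and 9.

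The difference between regions in the change from SPF to GF passed for 248 genes (4.16%), 143 with a higher ratio of GF to SPF in Hip (2.4%) and 105 with a higher one in PFC (1.76%). Ptgds had a log2 ratio of Hip to PFC of −0.26 in GF mice (adjusted p = 0.91), −2.76 in SPF (adjusted p = 9.23e-07) and −1.59 in CGF (adjusted p = 0.000576), and the changes differed by 2.50 (adjusted p = 0.001). Ptgds was lower in Hip than in PFC in SPF and CGF mice and did not pass in GF mice. Cluster 3, where Ptgds and Sphk1 (328 CPM) were highest, held 12 of the 225 SPF nuclei of Hip and 46 of the 173 of PFC, so that the clusters made up different parts of the nuclei compared. Dcn went the other way, at 0.05 in GF, 2.06 in SPF and 2.09 in CGF (difference of changes −2.01). Sphk1 stood at 0.20, −3.86 and −1.43 and Aebp1 at −0.41, −3.10 and −2.32. Lama1 had −0.14, −0.01 and −0.25. With no filter the split of 143 and 105 became 76 and 240, and without clusters 4, 7 and 9 it was 87 and 97. The count of 248 fell to 96 without GF mouse 7 and to 131, 120 and 106 without SPF mouse 30, 31 and 32.

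The changes from SPF to GF were also set against those in the other vascular cells of the same libraries. In Hip 0 of 8756 genes changed differently from endothelial nuclei between GF and SPF (edgeR, 589 at an unadjusted p under 0.05, 61 without clusters 4, 7 and 9). In PFC 42 changed more towards GF in fibroblasts (0.789%) and 37 less (0.695%) of 5321. The balance turned to 28 and 58 with the size factors of DESeq2, 11 and 22 by DESeq2 itself and 68 and 114 without clusters 4, 7 and 9. The largest fitted differences towards GF were those of the collagens Col6a6 (adjusted p = 0.0141) and Col8a1 (adjusted p = 0.012), which were at 0 in all 3 SPF PFC sums of fibroblasts, so no fold is given. Neither was among the genes tested between GF and SPF PFC in fibroblasts alone. Besides these, Angpt1 and Il31ra, the former included the potassium channel Kcnq1 (4.63 ± 0.88), and the latter the intermediate filament nestin (Nes) and the doublecortin domain gene Dcdc2a (−5.33 ± 1.47). In all other PFC nuclei Kcnq1 had 226 to 268 CPM in GF and 8.37 to 10.2 in SPF. The PFC count of 79 (1.48%) was 17 when GF mouse 7 was left out, 23 for SPF mouse 30 and 37 for SPF mouse 32, and 182 without clusters 4, 7 and 9. Against mural nuclei 0 of 5463 genes passed in Hip and 0 of 3523 in PFC by edgeR, with 363 and 292 at an unadjusted p under 0.05. Without clusters 4, 7 and 9 there were 34 in Hip, 9 upwards and 25 downwards, and 55 in PFC, 11 and 44. A library held as few as 11 mural nuclei.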

How the data were processed

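The hippocampus and prefrontal cortex of 9 mice gave 18 libraries. The authors deposited raw UMI counts per gene and barcode for each library, without further filtering or pooling. Per their methods and the file headers, reads were assigned to mm10 genes with Cell Ranger 3.1.0, and the submitters' processing notes also name CASAVA 1.8; whether intronic reads were counted is not given in the sources used here. The labels name each mouse, and Hip and PFC libraries with the same mouse number came from 1 animal. Deviations from group means of same-mouse libraries correlated at −0.0513 to 0.0753 over 9 pairs and 5972 genes.

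Nuclei with at least 200 genes and at most 10% mitochondrial UMIs were kept (138000 of 139924 barcodes; 1924 were left out for mitochondrial UMIs). Of 30905 genes, those passing filterByExpr were tested on UMI sums per library with edgeR 4.0.16 (TMM scaling, quasi-likelihood test, Benjamini-Hochberg over all genes tested, threshold 0.05; R 4.3.3), using 9 libraries of a region in 1 fit, or 18 for regions. The standard error is the log2 fold change over the root of the F statistic. Changes in fibroblasts were compared with those in endothelial, mural or all other nuclei as an interaction, with the mouse as a block. Library sizes were the UMIs of the genes tested. CPM of fibroblasts in comparisons are per 1 M of these, TMM-scaled within a region (within all 18 libraries for Hip against PFC), those of clusters, other nuclei and ratios are per 1 M of all UMIs, and none are per length. The 16 genes of the rule are left out of counts of genes called. Shares were tested by exact permutation of mice between groups, two-sided. Fibroblasts were clustered with leidenalg 0.10.2 (2000 variable genes, 10 components, 15 neighbours, resolution 0.6). Coordinates are from GENCODE on GRCm38, the assembly of mm10.

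Named genes are the 5 markers, the 20 genes outside the rule with the highest median ratio of fibroblasts to other nuclei (at least 20 UMIs in each region and a median of 50 CPM), the 5 largest rises and falls without overlap of each comparison, the smallest p-values in each list and the 5 largest in each direction against endothelial nuclei; where a group was at 0 throughout, the fitted fold depends on the prior count and is left out or given with a bound against 3 counts over the group. The fibroblast rule, the 26 gene lists and these rules were chosen with earlier results of these data known. Alternatives were DESeq2 1.42.0, its size factors, no filter, thinned counts, stricter rules, the mouse as a block and leaving out each mouse. Intervals and p-values of comparisons between groups cover the spread between the 3 mice of a group. Those of the interactions rest on a spread per gene that fibroblast sums share with the much larger or other sums of the same mice. They do not measure the spread of fibroblast sums alone. The comparison with all other nuclei was added after the data were seen. Some genes that met these rules are not reported here.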

Additional observations from a re-analysis of the deposited data

Results flagged for a closer look

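The change from SPF to GF in fibroblasts differed between Hip and PFC by the test of that difference for 248 genes. Among named genes the ratio of GF to SPF was higher in Hip by 2.50 on the log2 scale for Ptgds, 2.60 for Dpp4, 1.70 for Slc22a8, 2.03 for Slc16a11, 2.40 for Slc6a12, 2.69 for Aebp1 and 4.06 for Sphk1. It was lower in Hip for the matrix genes Dcn (−2.01) and Col3a1 (−2.38), for Slc7a11 (−1.18) and for the potassium channel Kcnq1 (−4.57). Predicted genes with a lower ratio in Hip were Gm20754 (−2.64), Gm26719 (−5.12), Gm15261 (−7.54), Gm26835 (−6.74), Gm42439 (−7.67) and Gm44686 (−7.38), of which all but Gm20754 and Gm26719 were at 0 in all 3 SPF PFC sums, so that their fitted values depend on the prior count. In PFC these were at least 15.2-fold (Gm15261), 8.54-fold (Gm26835), 9.42-fold (Gm42439) and 10.2-fold (Gm44686) higher in GF than the level that 3 counts over the SPF group allow. These genes and Kcnq1 were also higher in GF in the other PFC nuclei. There Kcnq1 had 226 to 268 CPM in GF and 8.37 to 10.2 in SPF, and Gm26835 209 to 282 and 4.45 to 5.95. Gm42439 had 67.8 to 125 and 2.09 to 2.49, Gm44686 42.2 to 54.5 and 1.11 to 2.60, and Gm15261 7.61 to 18.4 and 0.237 to 0.652. Further transcripts that moved in all nuclei differed too, at 4.47 for Gm42418, 4.13 for Cmss1, 3.07 for Lars2, 2.52 for Camk1d, 2.19 for AY036118 and 1.72 for Gphn. Of genes of other cells, Mbp differed by 3.13 and Snap25 by −1.54. The BMP receptor Bmpr1b (−2.66) was a leading gene of cluster 4, in which astrocyte markers were high, with 624 CPM there against 13.9 in other fibroblasts. The depth of the fibroblast sums differs between groups in both regions, and on sums thinned to equal depth the count was 60 of 1519 genes tested (3.95%, beside 4.16% of 5964).

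The share of fibroblasts in Hip minus that in PFC differed over the 3 groups of mice (exact permutation p = 0.00714), being −1.39 to −1.14 percentage points in GF mice and −0.200 to 1.02 in the others. The cut of 3 marker UMIs moves with depth. The median fibroblast had 2082.5 to 2575 UMIs in GF PFC, 968 to 1131 in SPF PFC and 937.5 to 1181.5 in CGF PFC. Among nuclei with no excluded UMI the shares gave p = 0.443 in Hip and 0.775 in PFC by the exact permutation test. The difference between regions was not tested in that setting, and its p was not adjusted.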

How the results depend on the processing

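Of 290 alternative values of 18 results, 167 kept their call and their size within 1.5 times, and the cause of the other 123 was not tested beyond what each setting changes. For genes passing between GF and SPF the count in Hip was 68 with at least 5 marker UMIs, 140 with no excluded UMI, 130 without nuclei admitted by Ranbp3l alone and 80 on thinned sums, and in PFC 275, 167, 260 and 144, and 999 with no filter. For GF and CGF it was 303, 66, 377 and 97 in Hip and 377 by DESeq2, and 270, 157, 294 and 127 in PFC and 1176 with no filter (822 higher and 354 lower). For CGF and SPF in Hip it was 0 with no excluded UMI or on thinned sums, 40 with no filter and 7 without clusters 4, 7 and 9, and in PFC 1 by DESeq2 or its size factors and 8 with no filter.

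For Hip against PFC the GF count was 3 with at least 5 UMIs, 75 with no filter, 8 without Ranbp3l-only nuclei, 20 without clusters 4, 7 and 9 and 20 with the replicate block by mouse; the SPF count was 361, 257 (no excluded UMI), 252 (thinned), 321 and 516, the CGF count 481, 163, 219, 596 and 603, and the region difference 90, 63, 60 and 74 (without Ranbp3l-only nuclei). The block moved no other of these counts by over 1.5 times. Against endothelial nuclei the Hip count was 21 with no filter, 1 on thinned sums and 61 without clusters 4, 7 and 9, and the PFC count 33 by DESeq2, 19 with no replicate block, 10 on thinned sums and 182 without these clusters. Against mural nuclei it was 14 with no filter, 1 thinned and 34 without the clusters in Hip, and 7 and 55 in PFC, and against all other nuclei 165 in Hip without the clusters. Shares gave p = 0.0536 (at least 5 UMIs), 0.443 (no excluded UMI) and 0.0607 (thinned nuclei) in Hip by the exact permutation test, and 0.775 (no excluded UMI), 0.114 (of vascular nuclei) and 0.0536 (without the clusters) in PFC.

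Leaving out 1 mouse gave 79 to 419 for GF and SPF in Hip and 379 to 724 in PFC, 190 to 629 and 554 to 830 for GF and CGF, 0 to 4 and 0 to 2 for CGF and SPF, 3 to 9 (GF), 315 to 873 (SPF) and 511 to 1100 (CGF) for Hip against PFC, 96 to 227 for the region difference, 0 to 3 in Hip and 17 to 105 in PFC against endothelial, 0 to 2 in both against mural, and 20 to 111 in Hip and 136 to 254 in PFC against all other nuclei. The exact permutation p of the share ran from 0.0179 to 0.118 in Hip and 0.0107 to 0.0893 in PFC. For Hip against PFC, SPF mice 30, 31 and 32 (514, 401 and 315 without them) and CGF mice 17, 18 and 19 (529, 654 and 511) moved the count most. The count against all other nuclei in PFC was 136, 138, 148, 166 and 176 without SPF mouse 32, 31 or 30 or GF mouse 6 or 7, and that in Hip 20 without GF mouse 7. Over 209 named-gene results, 2886 of 3464 values kept their call, 577 no longer passed and 1 turned, Dpp4 between GF and CGF in Hip at −0.37 with no excluded UMI; 87 results kept their call in all, 5 of 45 for GF and SPF and 12 of 44 for GF and CGF in Hip, against 35 of 57 and 34 of 57 in PFC. Sums of 45793 to 624610 UMIs limit genes under about 20 UMIs, and libraries were deeper in GF PFC than in the other PFC groups.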
